A study of Zea mays with 6 samples.

Results

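The cohesin genes ZmSMC1, ZmSMC3 and ZmRAD21 and the shugoshin gene ZmSGO1 are 4 of the 39174 gene and transcript names on the arrays, and 14 of the 42034 maize probes measured them, chosen as all non-control probes that carry exactly one of these names. ZmSMC1 had 2 probes, ZmSMC3 had 4, ZmRAD21 had 7 and ZmSGO1 had 1. Probes that share a gene name are not replicates of a condition, and whether they read the same transcript was not tested. RNA was measured in anthers of the maize inbred W23, wild type, at an anther length of 700 µm per the titles, with 701 µm in another label of replicate 2. Pre-meiotic cells cut out by laser microdissection (2 samples) were set against whole anthers of the same stage (2 samples), which also hold the pre-meiotic cells. The other array carried laser-microdissected pre-meiotic cells from anthers 1 mm long, 1 sample from the mac1 mutant and 1 from the mac1 heterozygote, which the series' design text treats as wild type although it carries a mutant copy. The labels name neither the mac1 allele nor its genetic background, and they do not say how many plants went into a sample. RNA of dissected cells and of whole anthers was extracted by different methods, so cell type and preparation cannot be told apart. Arrays of the W23 comparison had opposite dye orientations, and the mac1 array had no dye swap.

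Cohesin is a ring-shaped protein complex that holds sister chromatids together from their replication until they separate. SMC1 and SMC3 are long coiled-coil ATPases that form most of the ring, and a kleisin subunit closes it. RAD21 is the kleisin of mitotic cohesin, while in meiosis its place is largely taken by REC8, known in maize as AFD1. When cohesion is released, the protease separase cuts the kleisin. Shugoshin protects cohesin at the centromeres, and in maize SGO1 is needed to keep sister centromeres together through the first meiotic division. Anther cells of this stage still divide by mitosis, in the somatic layers as well as among the cells that will enter meiosis.

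Of the 36 genes of a wider list of cohesion, chromosome and early meiosis genes, AM1 alone was named on the arrays outside these 4 genes. AM1 is needed for entry into meiosis and was also the only germinal marker that could be read, as 1 of 9 listed, while 0 of 14 listed markers of the somatic anther layers were named. The brightest AM1 probe had log2 levels of 6.78 and 7.03 in W23 pre-meiotic cells, against 5.83 and 5.77 in whole anthers, and 7.42 in the mac1 mutant, against 7.60 in the heterozygote. All dissected samples thus lay above whole anthers for this marker. The share of all probes called well above background by the scanner software ran from 64.4% to 77.7% in dissected samples, against 82.5% and 84.3% in whole anthers. In the reference gene table, SMC3 and SGO1 occur as names of LOC103630807 and LOC606461, and no entry was found for SMC1 or RAD21.

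Levels are log2 values of background-corrected, normalised intensity, and each probe is compared only with itself across samples. The ratio of pre-meiotic cells to whole anthers was taken within each array and fitted with limma over the 33646 probes that the scanner software placed well above background in both samples of either tissue. Of the 14 probes, 13 entered the fit. Among them, 4 were lower in pre-meiotic cells (1 of ZmSMC1 and 3 of ZmSMC3), 0 were higher and 9 were not called at a limma adjusted p under 0.05. Over all tested probes, 34.7% were called, 19.5% lower and 15.1% higher, so the called share of the members, 30.8%, was near the background. The lower side held 56.3% of all calls, and 93.6% with median centring in place of loess or 72.7% with the scanner's processed signals. The median log2 ratio of the 13 probes was -0.097, against -0.0085 over all tested probes. That median is the value of ZmRAD21 A_92_P018022, which was not above background in pre-meiotic cells. Over the 11 members well above background in all 4 W23 samples the median was -0.17, against 0.020 over all such probes. The 2 groups of samples did not overlap in level for 8 of the 13 probes (61.5%), against 66.4% of all tested probes. The ratio was below 0 on both arrays for 7 of the 13 (53.8%, against 40.3% of all tested probes), above 0 on both for 1 (against 36.8%) and of opposite sign for 5 (against 22.9%). ZmRAD21 A_92_P018022 and A_92_P025164 are counted both in the 8 and in the 7. They passed the filter through whole anthers only, which favoured a lower value in pre-meiotic cells, so neither count is a result about the members. Fewer cells of a type and less RNA per cell cannot be told apart in these samples.

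**Figure D1:**
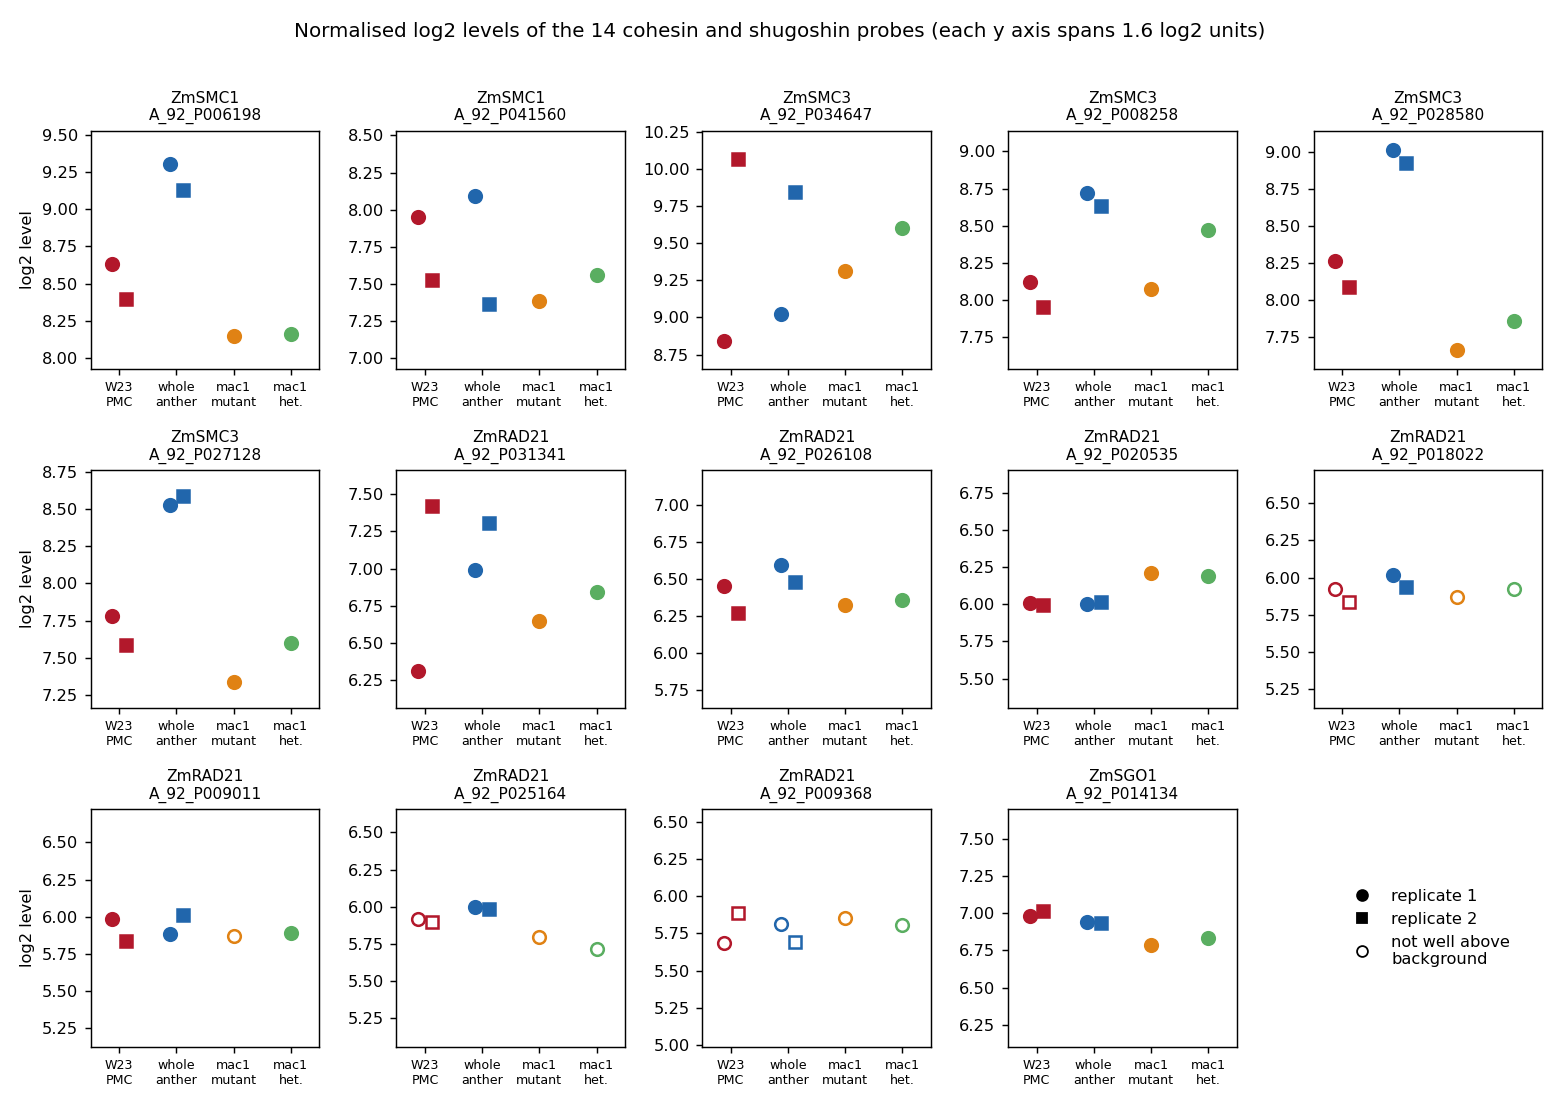
Normalised log2 level of each of the 14 probes (1 panel each) in W23 pre-meiotic cells (PMC), whole anthers, the mac1 mutant and the mac1 heterozygote (het.), with circles for replicate 1, squares for replicate 2 and open symbols where the scanner software did not call the spot well above background. Whole anthers lie above all pre-meiotic samples for 1 ZmSMC1 probe and 3 ZmSMC3 probes and, by smaller steps, for some dim ZmRAD21 probes, and the open symbols belong to 4 ZmRAD21 probes.

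ZmSMC1 was lower in pre-meiotic cells on 1 of its 2 probes. The brighter probe, A_92_P006198, had log2 levels of 8.63 and 8.40 in W23 pre-meiotic cells, against 9.31 and 9.13 in whole anthers. Both dissected samples were below both whole-anther samples, and the mean log2 ratio was -0.71 ± 0.102 (SE, 2 arrays, 1.63-fold lower, limma adjusted p = 0.00356), at -0.68 on the array of replicate 1 and -0.73 on that of replicate 2. The other probe, A_92_P041560, had log2 levels of 7.95 and 7.53 in pre-meiotic cells, against 8.10 and 7.36 in whole anthers. Here the samples of replicate 1 were high and those of replicate 2 low in both tissues, the groups overlapped, and the log2 ratio of 0.01 ± 0.119 was not called (limma adjusted p = 0.958). Its array of replicate 2 was lower than that of replicate 1 by a mean log2 level of -0.58, a larger step than that between the tissues on either array. Fits with 1 W23 sample dropped used separate channels without the pairing by array, and left 1 sample in a group. In each of them the call of the brighter probe was lost, although the ratio stayed between -0.82 and -0.59. Without the pairing and with all samples kept, its limma adjusted p was 0.0225. The call was also lost with an offset of 0 (limma adjusted p = 0.0572), with processed signals (0.0860) and when dye replaced array as a term (0.0873).

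ZmSMC3 was lower in pre-meiotic cells on 3 of its 4 probes, and these 3 were close in size. Probe A_92_P027128 had log2 levels of 7.78 and 7.58 in pre-meiotic cells, against 8.53 and 8.59 in whole anthers, and a log2 ratio of -0.88 ± 0.114 (SE, 2 arrays, 1.84-fold lower, limma adjusted p = 0.00243). Of the 4 called probes, this one alone kept its call in each unpaired fit with 1 W23 sample dropped. Probe A_92_P028580 had 8.26 and 8.09 in pre-meiotic cells, against 9.01 and 8.92 in whole anthers, and a log2 ratio of -0.79 ± 0.103 (1.73-fold lower, limma adjusted p = 0.00245). Its call was lost in the unpaired fits without pre-meiotic cells replicate 2 or whole anthers replicate 1. Probe A_92_P008258 had 8.12 and 7.96 in pre-meiotic cells, against 8.72 and 8.64 in whole anthers. Its log2 ratio of -0.64 ± 0.103 (1.56-fold lower, limma adjusted p = 0.00521) lost its call in each unpaired fit with 1 W23 sample dropped. In all 3 the groups were apart by more than the gap between replicates, and both arrays gave a lower value.

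The brightest ZmSMC3 probe, A_92_P034647, went its own way. It had log2 levels of 8.84 and 10.07 in pre-meiotic cells, against 9.02 and 9.84 in whole anthers. The array of replicate 2 lay above that of replicate 1 by 1.03 in mean log2 level, and both tissues moved with it. The ratios were -0.18 and 0.23 on the arrays of replicates 1 and 2, with a mean of 0.02 ± 0.132 (SE, limma adjusted p = 0.926). The scanner's background-subtracted intensity, which is not scaled between samples, was 269 and 1153 units in pre-meiotic cells, against 1002 and 1402 in whole anthers, for replicates 1 and 2. Replicate 2 was the higher in both tissues, and the replicates of a tissue carried different dyes. The authors' deposited value table held 502 and 1382 for pre-meiotic cells, against 591 and 1225 for whole anthers, for replicates 1 and 2, so the step between arrays was there in their values too. In the scanner's processed signals it was smaller, with 8483 and 11412 units in pre-meiotic cells, against 10320 and 10332 in whole anthers.

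**Figure D2:**
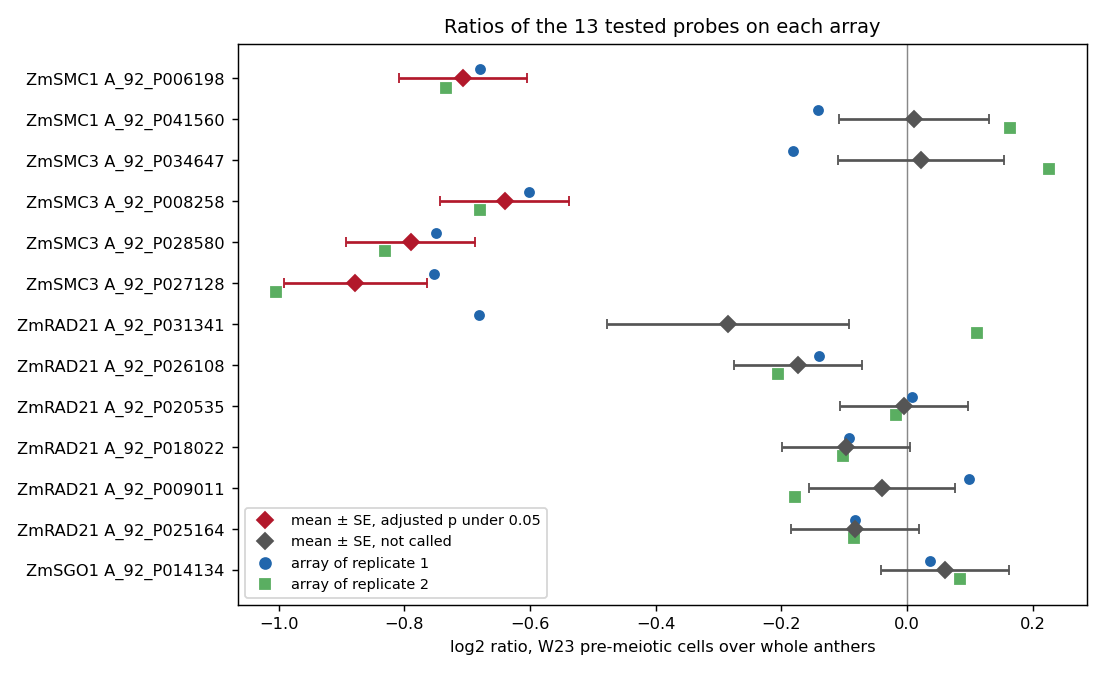
Log2 ratio of W23 pre-meiotic cells over whole anthers for the 13 tested probes, with diamonds and bars for the mean and SE of limma's fit (red where the adjusted p was under 0.05) and circles and squares for the arrays of replicates 1 and 2. The 4 called probes lie between -0.88 and -0.64 with both arrays on the lower side, and the ZmRAD21 probe A_92_P031341 has its arrays furthest apart, at -0.68 and 0.11.

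None of the 6 tested ZmRAD21 probes was called. In limma, 0 of these 6 had an unadjusted p under 0.05, and by processed signals 1 was called. All 6 mean log2 ratios were below 0, between -0.28 and -0.0049, but that sign depended on the processing. With median centring A_92_P020535 (0.11), A_92_P018022 (0.076), A_92_P009011 (0.14) and A_92_P025164 (0.084) were above 0. A_92_P018022 and A_92_P025164 passed the filter through whole anthers only, which favoured that sign. A_92_P020535 (-0.0049) and A_92_P009011 (-0.040, with 0.098 and -0.18 on the arrays of replicates 1 and 2) were close to 0. The brightest probe, A_92_P031341, had log2 levels of 6.31 and 7.42 in pre-meiotic cells, against 6.99 and 7.31 in whole anthers. Pre-meiotic cells replicate 1 was the lowest of the 4 and replicate 2 the highest, so whole anthers lay between them. The ratio was -0.28 ± 0.192 (SE, 2 arrays, limma adjusted p = 0.327), and it changed sign to 0.27 in the unpaired fit without pre-meiotic cells replicate 1. That sample had a background-subtracted intensity of 9.68 units, against 124 in whole anthers on the same array. On the array of replicate 2 these were 117 units in pre-meiotic cells, against 192 in whole anthers.

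Probe A_92_P026108 had log2 levels of 6.45 and 6.27 in pre-meiotic cells, against 6.59 and 6.48 in whole anthers, and a log2 ratio of -0.17 ± 0.102 (SE, limma adjusted p = 0.262). The groups were apart, but the gap between them was narrower than that between replicates of pre-meiotic cells. Probe A_92_P020535 was flat, at log2 levels of 6.012 and 5.996 in pre-meiotic cells, against 6.004 and 6.013 in whole anthers. Its background-subtracted intensity was 6.18 and 6.35 units in pre-meiotic cells, against 17.2 and 12.2 in whole anthers, both below the offset of 50 units added to every signal before the log2 step.

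The other 4 ZmRAD21 probes were not well above background in every sample. A_92_P018022 and A_92_P025164 were well above background in both whole-anther samples and in 0 of the 4 dissected samples. Background-subtracted intensity of A_92_P018022 was -0.557 and -0.138 units in W23 pre-meiotic cells, against 10.2 and 6.54 in whole anthers, and that of A_92_P025164 was -0.485 and 0.0642, against 6.34 and 4.45. The 153 negative-control spots of the same samples averaged between -2.18 and -1.86 units with SDs of 1.46 to 1.81. Pre-meiotic cells gave no signal well above background, so no fold is given for these probes, and neither was called (limma adjusted p = 0.538 and 0.607). With median centring their log2 ratios were above 0, at 0.076 and 0.084. With an offset of 0 and all else kept, the log2 ratios were -0.54 and -0.42, again not called (limma adjusted p = 0.125 and 0.206). In processed signals, A_92_P018022 had 16.3 and 18.3 units in pre-meiotic cells, each about the size of the scanner's own error (16.2 and 18.3), against 57.5 and 48.2 in whole anthers. It was called lower in that fit (limma adjusted p = 0.0489), as were 8.47% of all probes, but the call rests on pre-meiotic values that were not above background, so no fold is given. A_92_P009011 was above background in 5 of 6 samples, all but the mac1 mutant, at a background-subtracted intensity of 3.11 and 2.33 units in pre-meiotic cells, against 4.22 and 4.01 in whole anthers. A_92_P009368 was not well above background in any of the 6 samples and was not tested.

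ZmSGO1 differed little in level, between 6.78 and 7.02 over all 6 samples. Its single probe, A_92_P014134, had log2 levels of 6.98 and 7.02 in pre-meiotic cells, against 6.94 and 6.93 in whole anthers. Pre-meiotic cells were higher on both arrays, by 0.04 and 0.08, and the groups did not overlap, as for 66.4% of tested probes. The log2 ratio of 0.06 ± 0.102 (SE, 2 arrays, 1.04-fold) was not called (limma adjusted p = 0.716). Background-subtracted intensity was 43.2 and 77.7 units in pre-meiotic cells, against 150 and 118 in whole anthers, well clear of the negative-control spots. With median centring in place of loess the sign turned, to -0.47 (limma adjusted p = 0.0671).

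**Figure D3:**
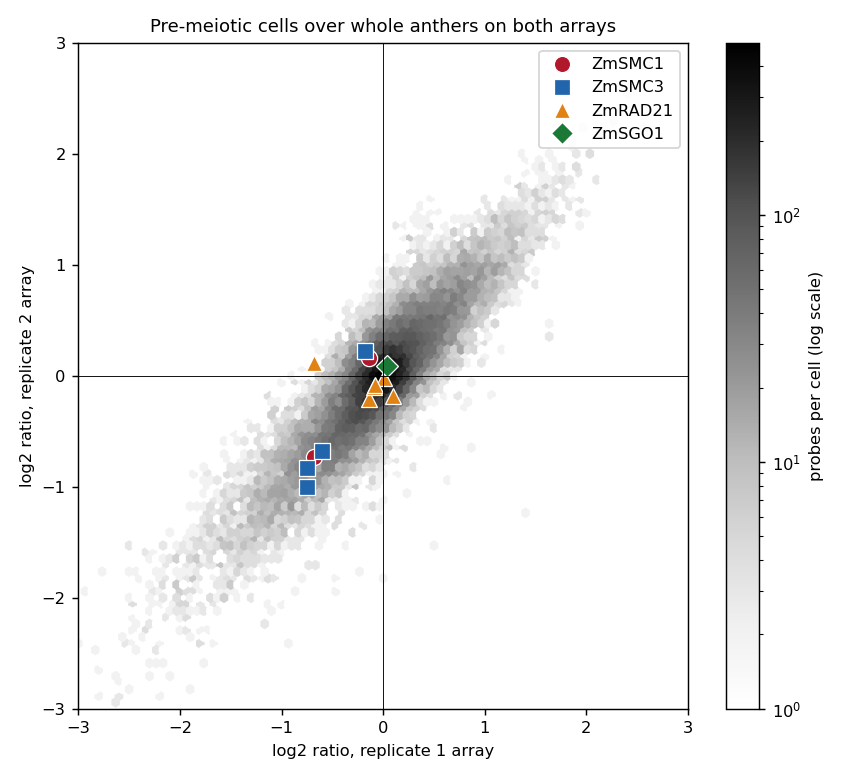
Log2 ratio of W23 pre-meiotic cells over whole anthers on the array of replicate 1 (horizontal) and of replicate 2 (vertical), with all tested probes as grey cells (darker for more probes, log colour scale, ratios beyond 3 not drawn) and the 13 member probes as coloured symbols. The called ZmSMC1 and ZmSMC3 probes lie low on both axes, within the cloud of other probes, whose ratios on the arrays correlated at 0.875.

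Probes of a gene did not always tell the same story. The ZmSMC1 ratios were 0.72 apart on the log2 scale, and the ZmSMC3 ratios 0.90. Among the 1523 other names with 2 tested probes the median gap was 0.32, and 21.5% were wider than that of ZmSMC1. Among the 9 other names with 4 tested probes the median range was 0.40, and 2 were wider than that of ZmSMC3. A mix of called and uncalled probes under 1 name was found in 39.9% of the names with 2 tested probes and in 4 of the 9 names with 4. The ZmRAD21 ratios spanned 0.28, against a median of 0.57 over the 6 other names with 6 tested probes. Over the 6 samples, the levels of the ZmSMC3 probes other than the brightest correlated with each other at 0.73 to 0.98, and with the brightest one at -0.12 to -0.07. Those same 3 probes correlated with the brighter ZmSMC1 probe at 0.71 to 0.99. The brighter ZmSMC1 probe correlated with its partner at 0.47, and the 2 other ZmRAD21 probes well above background in all samples correlated with the brightest at -0.11 and -0.36. These are descriptions over 6 samples from 3 arrays that share probes and dyes. The mac1 array lay on another slide than the W23 arrays.

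Ratios of several members moved with the processing. With processed signals the ZmRAD21 probe A_92_P031341 stood at -0.95, with -1.75 and -0.15 on the arrays of replicates 1 and 2, and A_92_P026108 at -0.54, neither called. The called ZmSMC1 and ZmSMC3 probes stayed between -0.95 and -0.74 there, without a call (limma adjusted p = 0.0773 to 0.0990). With median centring, where all tested probes had a median of -0.15, every ZmSMC1 and ZmSMC3 probe was called lower, at -1.63 to -0.71, and so was ZmRAD21 A_92_P031341 at -0.76 (limma adjusted p = 0.0230). That made 7 of 13 members, against 31.5% of all probes called lower in that fit. In the authors' deposited value table, 10 of the 13 probes had a value above 0 in all 4 samples, and the same 4 probes were called lower, at -0.94 to -0.67, as were 23.6% of all probes. Fits of the W23 samples called 4 members lower with no filter on dim probes (15.4% of all probes), with probes well above background in all 4 samples (21%) and with no replicate block (14.9%). They called 2 lower with an offset of 0 (15.2% of all probes) and 1 with the dye term (6.25%). Dropping replicate 1 of pre-meiotic cells or replicate 2 of whole anthers left 2 members called lower (6.73% and 8.18% of all probes), and dropping replicate 2 of pre-meiotic cells or replicate 1 of whole anthers left 1 (5.39% and 9.17%).

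**Figure D4:**
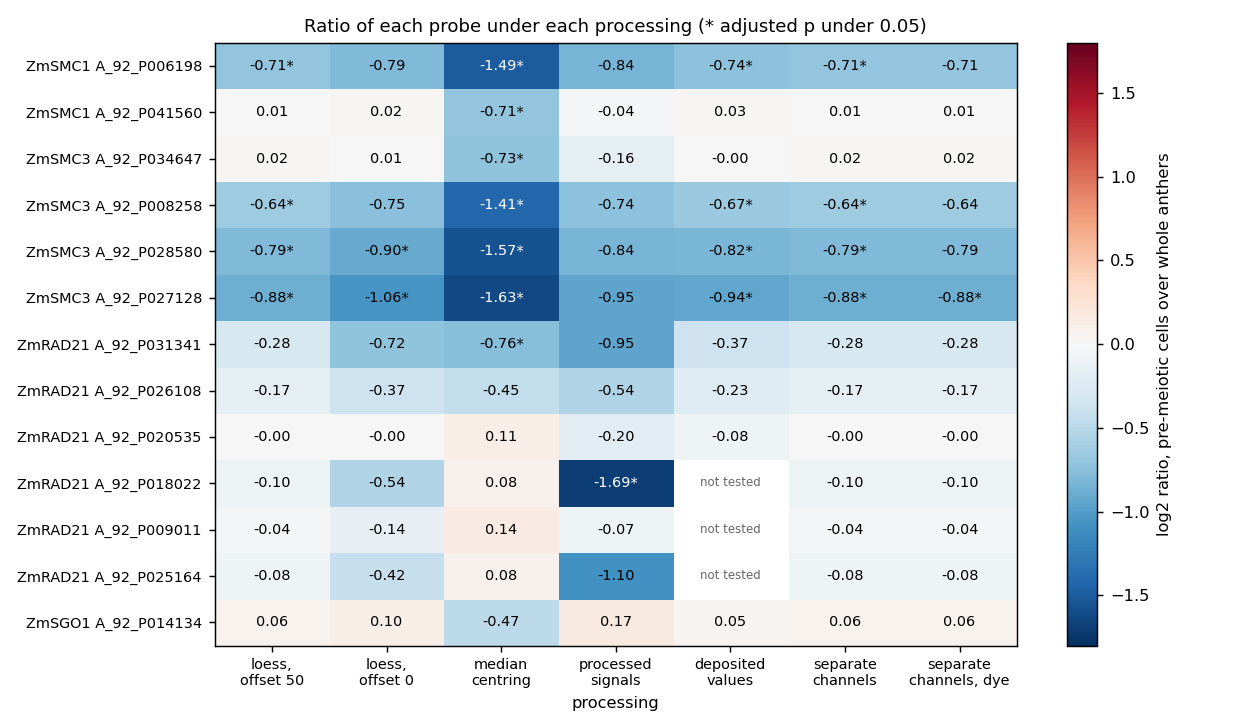
Log2 ratio of W23 pre-meiotic cells over whole anthers for each tested probe (rows) under 7 processings (columns), blue where lower and red where higher, with an asterisk where limma's adjusted p was under 0.05. The 4 probes called under loess with an offset of 50 are lower in every column, while ZmSMC3 A_92_P034647 runs from -0.73 to 0.022. For ZmRAD21 A_92_P018022 and A_92_P025164 the pre-meiotic signal was not above background, so their colours are no measured ratios.

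The mac1 array asked how these transcripts stand in pre-meiotic cells without normal mac1 function, a gene that limits how many anther cells become germ cells. With 1 sample a genotype, a difference has no replicate check and no test. One or both genotypes gave a signal well above background for 11 of the 14 probes, and 0 of them differed 2-fold, as 1.34% of all 32266 measured probes did. The log2 ratio of mutant over heterozygote was below 0 for 10 of the 11, against 52.3% of all measured probes, with a median of -0.18 against -0.0096. The count was also 10 with an offset of 0 (52.6% of all probes) and with processed signals (62.5%), and it was 9 with median centring (56.7%). ZmRAD21 A_92_P009011 is counted in the 10 although it passed the filter through the heterozygote only, which favoured a value below 0. With median centring its log2 ratio was 0.013. No member differed 2-fold with median centring, an offset of 0, the deposited table, no filter on dim probes or the dye difference of the W23 arrays removed, against 1.44%, 11%, 2.56%, 1.03% and 1.53% of all probes in the same order. Ratios from 1 array share 1 pair of samples, so this count is not evidence from 11 sources.

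All ZmSMC3 probes were lower in the mutant. Their log2 levels in the mutant were 9.31 (A_92_P034647), 8.07 (A_92_P008258), 7.67 (A_92_P028580) and 7.34 (A_92_P027128), against 9.60, 8.47, 7.86 and 7.60 in the heterozygote. The ratios of these 4 lay between -0.40 and -0.19. The brighter ZmSMC1 probe was level at 8.15 in the mutant, against 8.16 in the heterozygote, and the other one stood at 7.38 against 7.56. ZmSGO1 stood at 6.78 in the mutant, against 6.84 in the heterozygote.

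The brightest ZmRAD21 probe had a background-subtracted intensity of 9.06 units in the mutant, against 30.4 in the heterozygote, and A_92_P026108 had 2.94, against 7.08. The negative-control spots averaged -1.76 units in the mutant channel (SD 3.26, highest spot 31.9), against -1.39 in the heterozygote channel (SD 1.69, highest spot 12.6). The log2 ratios of these probes were -0.20 and -0.03 with an offset of 50, -0.59 and -0.14 with an offset of 0, and -1.54 and -1.26 with processed signals. The last are 2.91-fold and 2.39-fold lower, after the median log2 ratio of the array was subtracted. In processed signals 22.3% of all measured probes differed 2-fold. A_92_P020535 ran the other way, at 5.12 units in the mutant, against 2.57 in the heterozygote, with a log2 ratio of 0.02, or 0.99 with processed signals. The authors' deposited value table listed this probe at 0 in both mac1 samples. A_92_P009011 was well above background in the heterozygote only, at -1.27 units in the mutant, against 1.51 in the heterozygote, so no fold is given.

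**Figure D5:**
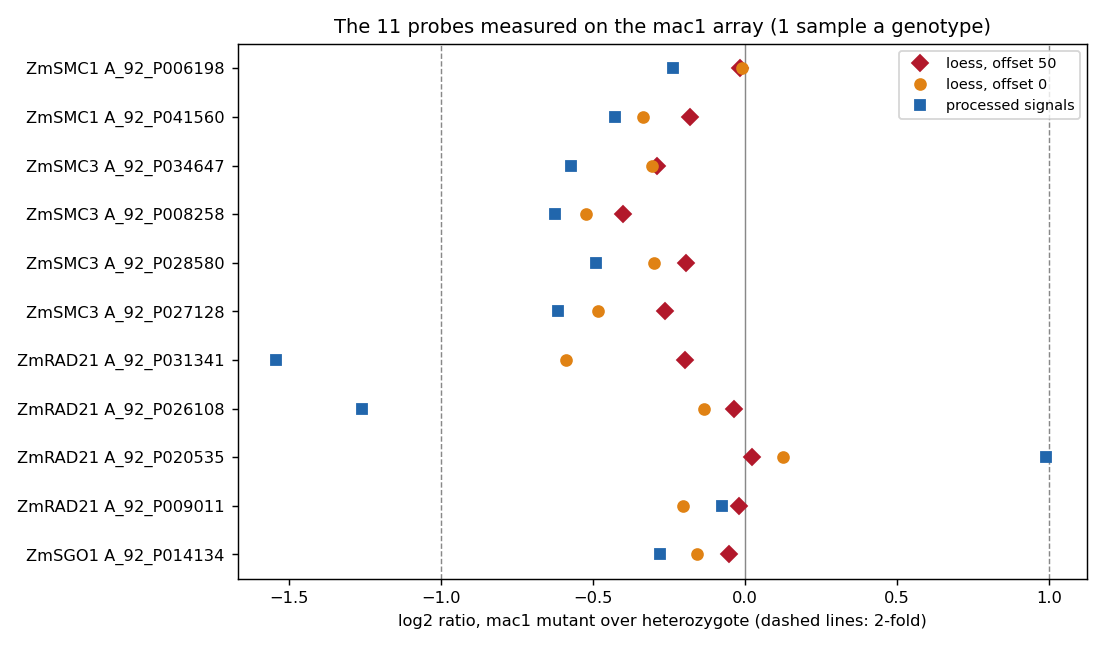
Log2 ratio of mac1 mutant over mac1 heterozygote pre-meiotic cells for the 11 probes measured on that array, with loess and an offset of 50 (diamonds), loess and an offset of 0 (circles) and the scanner's processed signals (squares), 1 sample a genotype. With an offset of 50 all ratios lie between -0.40 and 0.02, while ZmRAD21 probes reach -1.54 and 0.99 with processed signals.

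Placed side by side, the groups ran in nearly the same order for the called probes. For ZmSMC1 A_92_P006198 the mean log2 levels were, from low to high, 8.15 in the mac1 mutant, 8.16 in the heterozygote, 8.51 ± 0.162 in W23 pre-meiotic cells and 9.22 ± 0.124 in whole anthers (SD, n = 2 for each W23 group). Mutant and heterozygote were level for this probe, with a log2 ratio of -0.017, or 0.010 with the deposited table. ZmSMC3 A_92_P028580 had the groups in the same order, at 7.67 in the mutant, 7.86 in the heterozygote, 8.18 ± 0.123 in W23 pre-meiotic cells and 8.97 ± 0.0645 in whole anthers. So did A_92_P027128, at 7.34, 7.60, 7.68 ± 0.138 and 8.56 ± 0.0405, where the heterozygote and W23 pre-meiotic cells differed by less than the SD of the W23 samples. For A_92_P008258 the order was 8.04 ± 0.115 in W23 pre-meiotic cells, 8.07 in the mutant, 8.47 in the heterozygote and 8.68 ± 0.0594 in whole anthers, with the mutant inside the spread of W23 pre-meiotic cells. These 4 probes are those called lower in W23 pre-meiotic cells, which fixes that part of the order. The order from mutant through heterozygote and W23 pre-meiotic cells up to whole anthers was not particular to called probes. Uncalled ZmRAD21 A_92_P031341, A_92_P026108 and A_92_P009011 had it too, by small steps. In the same order, the heterozygote stood at 6.844, 6.357 and 5.890. W23 pre-meiotic cells stood at 6.863 ± 0.785, 6.361 ± 0.126 and 5.910 ± 0.106 (SD), so these groups differed by less than the SD. For A_92_P009011 the mutant spot was not above background. In other uncalled probes the order of the groups differed, as for ZmSMC3 A_92_P034647, where the heterozygote was highest at 9.60, against 9.43 ± 0.581 in whole anthers. The mac1 array lay on another slide, was scanned separately and held longer anthers, so these cannot be told apart in any step between the arrays. Over the 10 probes well above background in all samples, the heterozygote differed from W23 pre-meiotic cells by -0.35 to 0.43 in log2 level.

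Likeness of pattern could be read against 8 probes that carry another gene name and were well above background in all samples. By Pearson correlation over the 6 log2 levels, ZmSMC1 A_92_P006198 was most like 9258:MUDRA-21, a probe named after the MuDR transposon (0.90), with 12367:MUDR-TIRA and 20805:MUDRA next at -0.45 and -0.54. ZmSGO1 was also most like 9258:MUDRA-21 (0.78), ahead of AI676903 (0.04) and 290:MUDRB (-0.17). The brightest ZmSMC3 probe had no close match, with AI676903 at 0.19 and AM1 probes at 0.11 and -0.05. The brightest ZmRAD21 probe had none either, with 9258:MUDRA-21 at 0.31, AI676903 at -0.26 and 12367:MUDR-TIRA at -0.30.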

How the data were processed

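The deposited scanner files, 1 per array, are output of Feature Extraction 10.5.1.1 (Agilent), per the file headers. Their intensity columns, as deposited, hold median spot and local background brightness, background-subtracted signals, and processed signals that the software background-subtracted and dye-normalised. The authors' deposited value table holds 1 intensity per sample on a linear scale, and whether it was scaled between arrays stays unknown. Its columns had medians over probes of 58.6 and 60.8 (W23 pre-meiotic cells), 63.8 and 64.9 (whole anthers), 44 (mutant) and 46.4 (heterozygote), each column correlated best with its own channel (0.975 to 0.994), and 9023 to 20543 probes per column were at 0. Per the submitters' processing notes, limma 3.8.3 was used with R 2.13. Per the labels' protocols, 50 ng of RNA was amplified and labelled.

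With R 4.3.3 and limma 3.58.1, median signals were corrected by normexp (offset 50) and loess within arrays, and control and outlier spots were left out (8 to 12 probe spots an array; no probe spot was saturated). Levels were also scaled by Aquantile. The W23 fit (lmFit, eBayes, 1 residual and 4.87 prior degrees of freedom) used Benjamini-Hochberg adjustment over all tested probes. In simulated ratios for 33646 probes, 50 were changed at each size and 33446 were left unchanged. Called were 94% with a log2 change of 1, 6% with 0.5 and 0.0598% with 0. The real fit called 34.7% of probes, and the Benjamini-Hochberg cut-off depends on that share. These rates are thus no measure of the sensitivity of the W23 fit.

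Samples of a replicate number share an array and, per the design text, plants, so the ratio pairs them; their deviations correlated at 0.403 across probes. The labels do not say whether replicates used separate extracts, so p-values measure the spread between these arrays, which may be technical, dye effects included. The number of arrays limits the precision. A lower bound set the bright group against the dim probe's own level or, where higher, the dimmest level that counted as well above background in that sample. All member probes are named; for likeness, the 3 most correlated other named probes are given. Members and lists were chosen with earlier results of these data known. Probe sequences were not used here. The alternatives were an offset of 0, median centring, processed signals, the deposited table, other filters, separate channels with and without a dye term, and leaving out each sample. Log2 ratios from processed signals and from the deposited table had the median log2 ratio of their array subtracted.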

Additional observations from a re-analysis of the deposited data

How the results depend on the processing

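The number of probes called in the W23 comparison, 11659, was 3921 with processed signals, 3448 with the dye as a term in place of the array, and 3258 to 4960 when 1 sample was left out; a fit of separate channels with no replicate block gave 8642, with 4 member probes called. The number of member probes called, 4 of 13, was 7 with median centring, 2 with an offset of 0, 1 with processed signals, 1 with the dye as a term, and 1 to 2 when 1 sample was left out (1 without pre-meiotic cells replicate 2 or whole anthers replicate 1, and 2 without either of the others); no setting called a member higher. It stayed at 4 with the deposited table, with no filter on dim probes and with probes well above background in all 4 W23 samples. With median centring the sign turned for ZmSMC1 A_92_P041560 (-0.71), ZmSMC3 A_92_P034647 (-0.73), ZmSGO1 (-0.47) and the ZmRAD21 probes A_92_P020535 (0.11), A_92_P018022 (0.076), A_92_P009011 (0.14) and A_92_P025164 (0.084). With processed signals it turned for A_92_P041560 (-0.037) and A_92_P034647 (-0.16), and with the deposited table for A_92_P034647 (-0.00076). Leaving out 1 sample gave -0.35 to 0.38 for A_92_P041560, -0.59 to 0.64 for A_92_P034647, -0.84 to 0.27 for A_92_P031341, -0.0128 to 0.0031 for A_92_P020535 and -0.12 to 0.035 for A_92_P009011. Of 151 alternative values of the W23 member ratios, 112 kept direction and side of the threshold, which includes uncalled probes that stayed uncalled. Among the rest, 18 changed sign, 2 gained a call with the sign kept and 19 lost their call. All 19 belong to the 4 probes called lower. No member reached 2-fold on the mac1 array, except 2 with processed signals. Detection was the same by either flag of the scanner software, in 69 of 84 spots. The cause of these shifts was not tested. In dissected samples, ZmRAD21 A_92_P018022, A_92_P025164 and A_92_P009368 were not well above background, which limits any statement about their ratios.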
